A study of Mus musculus with 4 samples.

Results

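Col1a1, Col3a1, Col4a1, Col4a2, Nid1, Fn1, Sparc and Sparcl1 encode collagens, basement membrane proteins and matrix glycoproteins, and all 8 carried binding clusters of the RNA-binding protein IMP2 in embryonic mouse brain. Their transcripts were chosen by gene symbol from the deposited list of clusters and held 19 of its 1828 distinct clusters, or 8 of its 761 listed genes. A cluster is a stretch of RNA where sequenced fragments (tags) that were crosslinked to the protein pile up. Listing was the condition for choosing these genes, so their presence in the list is no result. Across the genome, 760 of 21896 protein-coding genes (3.47%) had at least 1 cluster.

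The tags came from crosslinking immunoprecipitation with sequencing (HITS-CLIP), in which ultraviolet light ties a protein to the RNA it touches. All 4 libraries were of the same kind: IMP2-bound RNA from brains of Swiss Webster mice at E14 (embryonic day 14), with no other genotype or treatment. Of these libraries, 2 carry R and 2 carry M in their titles, and the labels do not explain the letters. Antibodies raised in mouse and in rabbit are both named in the protocol, and how many embryos went into a library is unknown. A single cluster list stood for the 4 libraries, so each value below is the authors' own for a cluster, has no replicate error and was not tested. The starting tissue was whole brain, where fewer cells of a type and less RNA per cell cannot be told apart.

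The extracellular matrix is the network of secreted proteins around cells. Fibrillar collagens form the tensile fibres of connective tissue and, in the developing brain, are mostly made by the fibroblasts of the meninges. Basement membranes are thin sheets of type IV collagen, laminin and nidogen that lie under the pial surface and around blood vessels, and the end feet of radial glia attach to them. IMP2 (gene Igf2bp2) belongs to a family of proteins that bind messenger RNA and affect its location, stability and translation.

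Coding sequence (CDS) held 1 of the 19 clusters and 3' untranslated regions (3' UTRs) held the other 18, when a cluster was placed by its midpoint. In the whole list 99 of 1828 clusters (5.42%) lay in CDS, so the share among the matrix genes was close to the background. Each of the 8 genes was annotated with a single RefSeq transcript, and none of the 19 clusters was shared with another gene. Their 3' UTRs ran from 237 bases (Col1a1) to 2208 bases (Nid1), with a median of 965 against 1998 for the 729 listed genes with a 3' UTR interval.

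**Figure D1:**
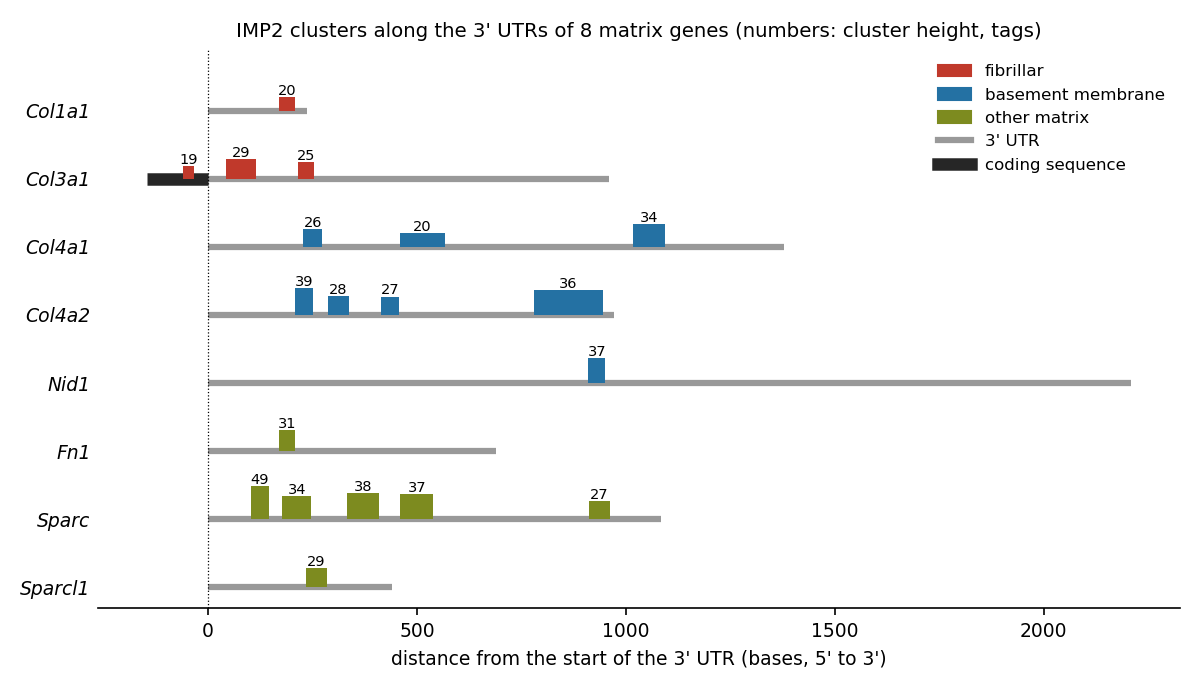
IMP2 clusters drawn to scale along the 3' UTRs of the 8 genes. The horizontal axis is the distance in bases from the start of the deposited 3' UTR interval, each coloured block is a cluster whose height follows the printed cluster height, and the black bar is the last deposited coding interval of Col3a1. Col4a2 and Sparc carry the most blocks, and the CDS block of Col3a1 sits just before its 3' UTR.

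Among the fibrillar collagens, Col1a1, which encodes a chain of type I collagen, the main protein of skin and bone, had a single cluster. It lay on chromosome 11 at 94813104 to 94813140 (genome build mm9, plus strand), inside a 3' UTR that the list places at 94812934 to 94813170. Its height, read as the largest number of overlapping tags, was 20, which was rank 696 among the 761 listed genes. The authors' other score, here called the fold, divides the height by a level that the file does not define. For Col1a1 the fold was 20, rank 4 of 761.

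Col3a1, which encodes the chain of type III collagen, a partner of type I collagen in soft tissues and vessel walls, had 3 clusters. The highest, with a height of 29 and a fold of 18.6, lay on chromosome 1 at 45405635 to 45405707 (plus strand), and began at base 43 of the 3' UTR. The next, at 45405809 to 45405846, had a height of 25 and a fold of 18.2. Both lay below the list's median height of 30 but above its lower quartile of 24, while their folds ranked 8 and 10 among the 1828 clusters. The remaining cluster was the only one of the 19 in CDS. It lay at 45405533 to 45405559, in the last coding interval, which spans 147 bases, and 33 coding bases separated it from the 3' UTR.

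The CDS cluster of Col3a1 was lower than its neighbours on both scores, with a height of 19 and a fold of 6.44. It was also the narrowest of the set at 27 bases, against a median of 49 bases for the 3' UTR clusters of the matrix genes. The 18 3' UTR clusters had a median height of 30 and a median fold of 9.79. In the whole list, CDS clusters had a median height of 26 and a median fold of 4.75, and 3' UTR clusters 30 and 5.45. Median widths in the whole list were 42 bases for CDS clusters and 55 for 3' UTR clusters. With 1 cluster in CDS, the difference between the regions in these genes rests on Col3a1 alone.

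Type IV collagen is the sheet-forming collagen of basement membranes, and Col4a1 and Col4a2 encode the chains of its common trimer. On chromosome 8 these genes lie head to head: the deposited transcript of Col4a1 starts at 11312826 on the minus strand and that of Col4a2 at 11312829 on the plus strand, 2 bases apart. Their 3' UTRs therefore lie at opposite ends of the pair, and their clusters are separate.

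Col4a2 had 4 clusters, all in its 3' UTR of 971 bases, and they covered 30.8% of it. The highest (39, fold 13.5) lay at 11448525 to 11448567. A pair of lower clusters followed with heights of 28 (fold 9.66) and 27 (fold 9.91). The last, at 11449097 to 11449260, was the widest of the 19 at 164 bases. It reached a height of 36 and the highest fold of the gene, 14.6, and ended 27 bases before the end of the annotated transcript.

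Col4a1 had 3 clusters in a 3' UTR of 1378 bases, of which 16.6% was covered. The cluster nearest to the stop codon had a height of 26 (fold 5.17) and the next a height of 20 (fold 5.39). The highest, with a height of 34 and a fold of 9.61, was the most distal, at 11198707 to 11198783 on the minus strand. Every Col4a2 cluster had a higher fold than any Col4a1 cluster, though only just (9.66 at the lowest against 9.61 at the highest), whereas their heights overlapped (27 to 39 against 20 to 34).

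Nid1 encodes nidogen-1, which links the laminin and type IV collagen networks. Its single cluster (height 37, fold 11) spanned 13603245 to 13603283 of chromosome 13 on the plus strand. With the longest 3' UTR of the set, it had the lowest covered share, 1.77%.

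Fn1 encodes fibronectin, the adhesive glycoprotein that integrins bind and cells assemble into fibrils. Its only cluster (height 31, fold 10.6) spanned 71632579 to 71632615 of chromosome 1 on the minus strand and covered 5.37% of the 3' UTR. It began 171 bases into the 3' UTR, as did that of Col1a1.

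Sparc encodes a secreted protein that binds collagens and modulates the contact of cells with matrix, and it led the set in both number and height of clusters. It had 5 clusters, all in a 3' UTR of 1084 bases, with heights of 49, 34, 38, 37 and 27 from the stop codon towards the 3' end. Their folds in the same order were 10.5, 6.92, 7.58, 5.69 and 5.68. The first of these, on chromosome 11 at 55208942 to 55208984 (minus strand), was the highest on both scores. Together they covered 29.4% of the 3' UTR, and 4 of the 5 lay in its first 539 bases. The clusters lay as near as 32 bases to each other, and joining those up to 50 bases apart left 3.

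Sparcl1 encodes the SPARC-like protein hevin, which astrocytes secrete in the mature brain and which promotes synapse formation. On chromosome 5, a single cluster (height 29, fold 9.43) spanned 104508283 to 104508334 on the minus strand. Sparc and Sparcl1, although of the same family, thus differed in number (5 against 1) and height (49 against 29), while their highest folds were 10.5 and 9.43.

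By height, the 8 genes were ordinary members of the list. The order of their highest clusters was Sparc (49), Col4a2 (39), Nid1 (37), Col4a1 (34), Fn1 (31), Col3a1 and Sparcl1 (29 each) and Col1a1 (20). Without replicates the spread of a height is unknown, so neighbours in this order cannot be said to differ. Their median of 32.5 was close to the 31 of all listed genes, and 4 of the 8 lay above that median, as 49.9% of listed genes did. Among single clusters, 9 of 19 were taller than the list median of 30 (46.9% in the whole list). At least 2 clusters were found in 4 of the 8 genes, against 44.9% of all listed genes.

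By fold, the set lay in the upper part of the list. All 8 genes had a highest fold above 8.34, the upper quartile of listed genes (25% of genes by construction), and the lowest of them was Sparcl1 at 9.43, rank 118 of 761. This threshold was set after the values were seen. Of the single clusters, 17 of 19 had a fold above the list median of 5.4 (49.9% in the whole list), with a median of 9.66. The exceptions were Col4a1 clusters, at 5.17 and 5.39. When the median fold of each gene was ranked in place of its highest, 6 genes stayed above the upper quartile (7.08), and Sparc (6.92) and Col4a1 (5.39) fell below it.

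**Figure D2:**
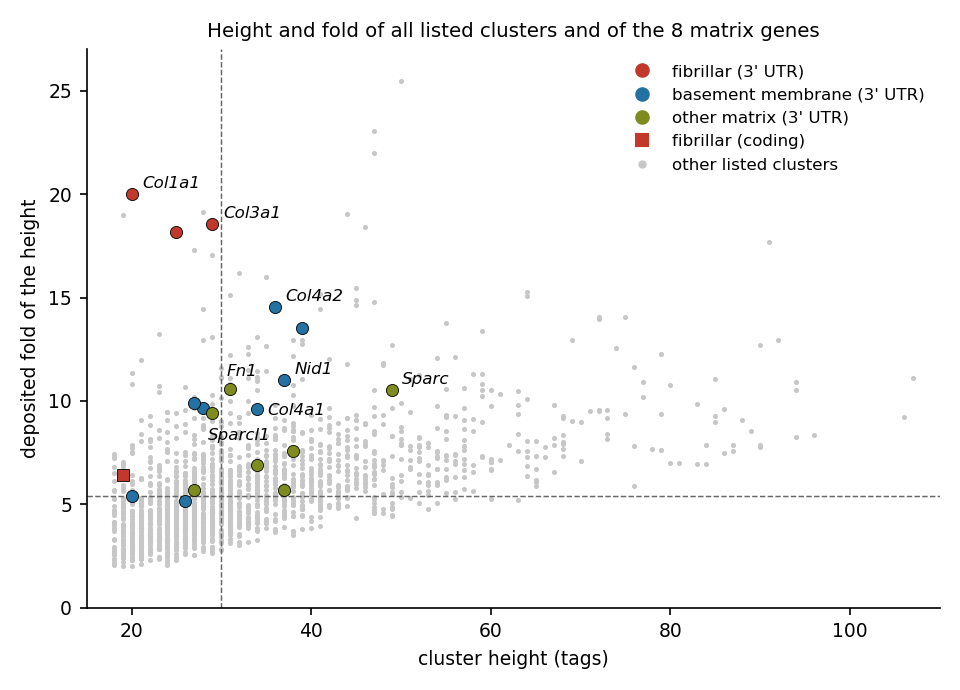
Height (horizontal axis, tags) and deposited fold (vertical axis) of every listed cluster in grey and of the 19 clusters of the 8 genes in colour; the labelled point of each gene is its highest fold, and dashed lines mark the list medians of 30 and 5.4. The collagen I and III clusters of the 3' UTR lie at the upper left, with folds of 18.2 to 20 at heights of 20 to 29.

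The contrast between the scores held at matched height. Of the 19 clusters, 18 had a higher fold than the median of all clusters of exactly the same height, as did 48.6% of the whole list. No cluster of the list had a fold above its height, and the fold of the Col1a1 cluster equalled its height. This cluster had the highest fold of the 65 clusters of height 20, whose median was 3.68. Likewise, the Col3a1 clusters of heights 29 and 25 were first among 91 (median 4.87) and 83 (median 4.38). The clusters of Col4a2 at heights 39 and 36 and that of Nid1 at 37 also ranked first, among 37, 43 and 41 clusters. The exception was a Sparc cluster of height 37, whose fold of 5.69 lay below the median of 6.28.

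Dividing height by fold gives the level that the authors' fold implies as its reference, so a high fold at an ordinary height is the same fact as a low reference level. For the 19 clusters this level had a median of 3.08, from 1.00 (Col1a1) to 6.50 (Sparc), against a median of 5.96 in the whole list. Levels under 2 occurred in 14 clusters of the list, and 3 of these were the 3' UTR clusters of Col1a1 and Col3a1. Whether the reference level follows the abundance of each transcript was not tested.

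Fibrillar collagens and basement membrane genes stood in opposite order on the 2 scores. The mean of the highest heights was 24.5 for Col1a1 and Col3a1 (20 and 29) and 36.7 for Col4a1, Col4a2 and Nid1 (34, 39 and 37), a difference of -12.2. The groups did not overlap on this score, but groups of 2 and 3 genes can easily separate by arrangement alone. For the highest fold, the means were 19.3 (20 and 18.6) and 11.7 (9.61, 14.6 and 11), a difference of 7.56 in the other direction, again without overlap. Leaving out any of the 5 genes kept both directions, as it must where groups do not overlap. The means of the median and of the summed heights were also higher for the basement membrane genes, but by summed height the groups overlapped (Nid1 at 37 and Col3a1 at 73). The implied reference level had a median of 1.47 over the 4 fibrillar clusters, 3.13 over the 8 basement membrane clusters and 4.75 over the 7 clusters of Fn1, Sparc and Sparcl1. Genes are not replicates, and no test was made of this order.

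**Figure D3:**
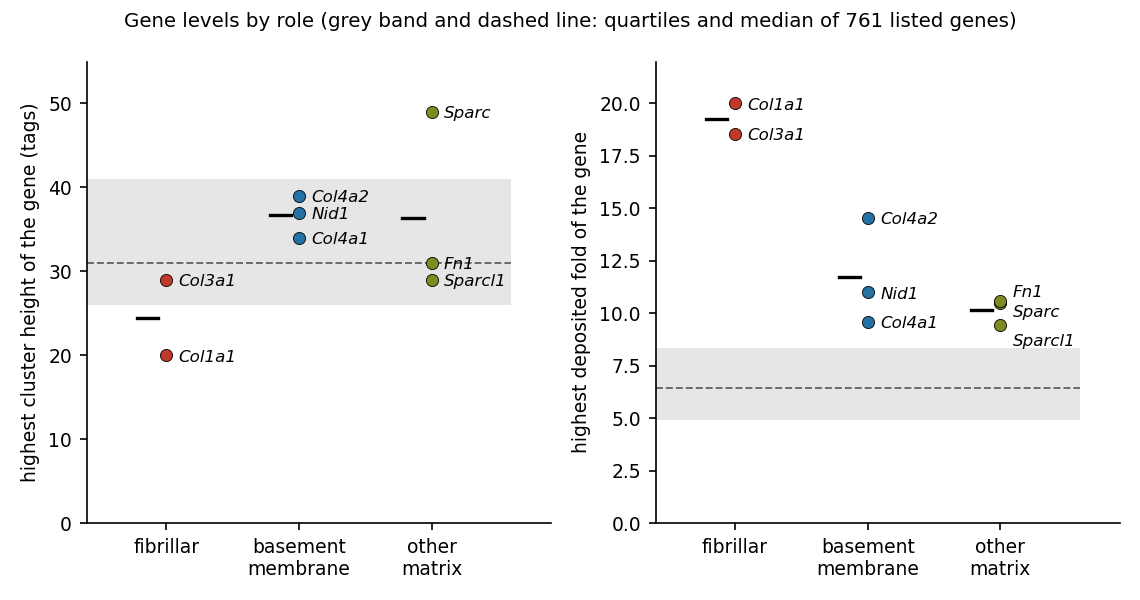
Highest cluster height (left, tags) and highest deposited fold (right) of each gene by role, each point a gene and each short bar the mean of its group; the grey band and dashed line are the quartiles and median of the 761 listed genes. Fibrillar collagens have the lower heights (20 and 29) and the higher folds (20 and 18.6), and all 8 points of the right panel lie above the band.

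At the median, clusters covered more of these 3' UTRs than of listed genes as a whole, a description with no test. Over the 8 genes, 1123 of 7966 bases (14.1%) lay under clusters. The median gene of the set had 13.7% covered, against 4.70% for listed genes with a 3' UTR interval, and 2.22 clusters per kilobase against 0.861. The 3' UTRs of the set were also shorter (median 965 against 1998 bases), and the part of length in the covered share was not tested. Nid1 (0.453 clusters per kilobase) lay below the listed median, and Sparc (4.61), Col1a1 (4.22) and Col4a2 (4.12) were the densest. The Col1a1 value is 1 cluster in 237 bases, whereas Sparc had 5 clusters and Col4a2 had 4.

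Along the 3' UTR, 13 of the 18 clusters had their midpoint closer to the stop codon than to the 3' end, compared with 52.1% of the 1721 3' UTR clusters of the list. Only that of Col3a1 at base 43 began within the first 100 bases. In Col3a1, Col4a2 and Sparc the highest cluster was the first in the 3' UTR, whereas in Col4a1 it was the last. The distal clusters of Col4a2 and Col1a1 ended 27 and 30 bases before the annotated 3' end.

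Beyond the 8 genes, no other gene of the collagen and basement membrane lists was listed. Of 43 collagen genes, Col1a1, Col3a1, Col4a1 and Col4a2 were the 4 listed ones (9.30%, against 3.47% of protein-coding genes), and these were chosen because they were listed. The second type I collagen gene, Col1a2, had no listed cluster, and neither did any of the other 30 collagens outside the fibrillar class and the main type IV pair. Among 27 basement membrane genes only Col4a1, Col4a2 and Nid1 were listed (11.1%), with 0 of 11 laminin genes and neither Nid2 nor the perlecan gene Hspg2. Of 18 matrix glycoprotein genes Fn1 alone was listed (5.56%). Like the collagens, Nid1 and Fn1 were chosen because they were listed, so neither share is a result. At the share of all protein-coding genes, lists this small can hold few or no listed genes, so nothing is read from the genes without a cluster. Clusters under a height of 18 or a fold of 2 do not appear in the list, so a gene without a cluster may still be bound.

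**Figure D4:**
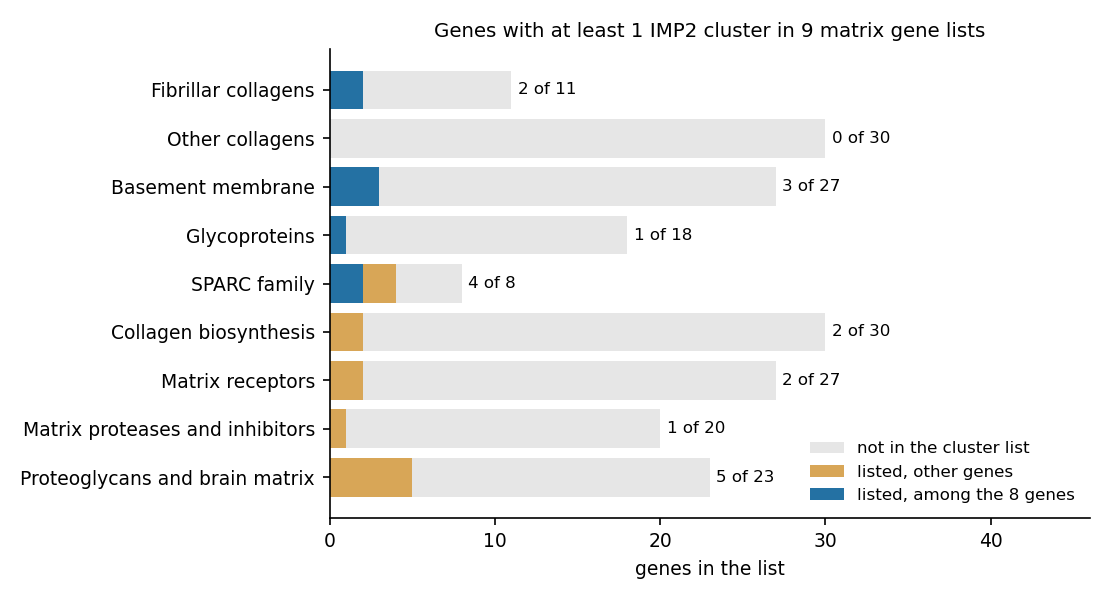
Number of genes (horizontal axis) in each of 9 matrix gene lists, split into those among the 8 genes with a cluster (blue), other genes with a cluster (ochre) and genes without one (grey). The SPARC family has 4 of 8 genes listed, of which 2 were chosen because they were listed, and none of the 30 other collagens is listed.

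Outside the 8 genes, the 9 related lists held 180 genes, of which 12 (6.67%) had a cluster, against 3.47% of protein-coding genes. Their 23 clusters included none in CDS. The median highest fold of these 12 was 7.24, against 6.46 for all listed genes. Of the 12, 5 exceeded the upper quartile of 8.34, as 25% of listed genes do by construction. The SPARC family added Fstl1 (height 43, fold 6.91), a secreted glycoprotein, and the proteoglycan gene Spock1 (24, fold 5.38). These folds were lower than those of Sparc (10.5) and Sparcl1 (9.43).

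The machinery that makes collagen had 2 of 30 genes listed (6.67%, against 3.47% of protein-coding genes). P4hb, a subunit of the prolyl hydroxylase that stabilises the collagen helix, had a cluster of height 31 (fold 7.38). Serpinh1, the collagen chaperone HSP47, had a cluster of height 30 (fold 7.10). Matrix receptors had 2 of 27 (7.41%), the integrin gene Itgb1 (41, fold 14.5) and the syndecan gene Sdc3 (31, fold 6). The Itgb1 product pairs with many alpha subunits to bind collagen, laminin and fibronectin. Itgb1 was the only 1 of 18 integrin genes listed (5.56%).

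Matrix proteases and their inhibitors had 1 of 20 (5%, against 3.47% of protein-coding genes), the membrane protease gene Adam10 (51, fold 11.1). Proteoglycans and brain matrix had 5 of 23 (21.7%). They were led by the neurocan gene Ncan (51, fold 8.39) and the reelin gene Reln (46, fold 8.95). Ptprz1 (34, fold 6.80) and the glypican gene Gpc2 (33, fold 5.70) followed. The fifth, Bgn, was singled out after its values were seen. It encodes the collagen-binding proteoglycan biglycan. Its fold of 19.2 lay between those of Col1a1 (20) and Col3a1 (18.6). Its height of 28 was near that of Col3a1 (29) and above that of Col1a1 (20).

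Genes of the 5 cell type marker lists were listed in part, against 3.47% of protein-coding genes. Of 15 markers of meninges and fibroblasts, 3 were listed (20%): Col1a1, Col3a1 and the transcription factor gene Zic1 (37, fold 7.4). Col1a1 and Col3a1 were chosen because they were listed, and of the other 13 markers only 1, Zic1, was listed. Dcn, Lum and Pdgfra, further fibroblast markers, were not. Endothelium had 1 of 15 (6.67%), the glucose transporter gene Slc2a1 (50, fold 10.9), while Pecam1, Cdh5 and Cldn5 were not listed. Pericytes had 1 of 9 (11.1%), the signalling regulator gene Rgs5 (47, fold 23.1), and Pdgfrb was not listed. Radial glia and progenitors had 3 of 12 (25%). Neurons had 7 of 10 (70%), among them Dcx (85, fold 11.1) and Stmn2 (85, fold 9.25). The part of any of these cell types in the clusters of the matrix genes was not tested.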

How the data were processed

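The values came from a single deposited list of 2865 lines, 1 for each cluster and transcript, covering 4 HITS-CLIP libraries. Per the submitters' processing notes, Bowtie and FastQC were used with the build mm9 (no versions). The peak caller, its limits, the RefSeq release and the libraries it ran on remain not given in the sources used here. Per the file headers, the deposited height of a cluster is a pileup signal and the other score is a fold (ratio) of that height, both the authors' own. Tags per library, and thus the depth, are unknown, and duplicates in PCR could raise heights. Lines were reduced to 1828 distinct clusters, starts were made 1-based, and regions were set by midpoint within the deposited intervals, which the file gives as coordinates. Transcripts were matched by accession (1087) or name (11) to RefSeq genes of GRCm38, for names only; 1 was unmatched. A gene's level was its highest cluster. The 8 genes, the 9 related lists and the 5 marker lists were chosen with earlier results of these data known, so no test was made. The text names all 8 genes and, per list, up to 4 listed others by height; unlisted genes are named from the same lists. Alternatives were joined clusters, stricter thresholds, other region rules, other gene levels and genes left out; ranks of fold by gene were added after the data were seen. Cluster sequences were not used here. Python 3.11.15 with pandas 2.3.3 was used, and the cluster functions were tested on simulated data.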

Additional observations from a re-analysis of the deposited data

How the results depend on the processing

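The number of clusters of the 8 genes fell from 19 to 9 when only those taller than the list median were counted, and was 17 with a fold above the list median and 16 with clusters joined at up to 50 bases. Joining left Sparc with 3 of 5. The CDS count stayed at 1 under every region rule and with joined clusters, but these settings could not change it. The cluster lay wholly in its coding interval, 75 bases from the next, and no other cluster of the set reached CDS. The fibrillar minus basement membrane difference in level, -12.2 by highest height, reversed to 7.56 by highest fold. It was -9.17 by median and -35.8 by summed height. With Col1a1, Col3a1, Col4a1, Col4a2 or Nid1 left out it was -7.67, -16.7, -13.5, -11 and -12 in that order, and by fold it ranged from 6.50 to 8.98. The groups do not overlap by highest height or highest fold, so leaving out a gene could not change either sign. The cause of the reversal was not tested. The implied reference levels given above are height divided by fold, so they restate the reversal and cannot test its cause. The CDS minus 3' UTR difference in median was -11 in height and -3.35 in fold, and rests on 1 CDS cluster. The covered share of 3' UTRs was 14.1% with the longest or the shortest interval, since each gene has 1. Of the 12 other listed matrix genes, 5 had at least 2 clusters and 9 a cluster taller than the list median. The count of 8 genes above the upper quartile of fold was 8 among genes with no more clusters than these have, 8 by the fold of the tallest cluster and 6 by the median fold. The count by the tallest cluster could not fall. That cluster's fold cannot exceed the gene's highest fold, so the quartile is at most 8.34. The tallest clusters of the 8 genes had folds of 9.43 or more. No paired analysis was possible because no value belongs to a single library, and for the same reason no library could be left out. The depth behind a height is unknown, which limits how finely heights can be ordered.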

Other observations

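The list ordered by highest fold began with genes of several kinds, named here after their values were seen. Tspan18, a tetraspanin gene, was first (25.5, height 50), followed by the pericyte gene Rgs5 (23.1, height 47) and Usf3 (22, height 47). Col1a1, Bgn, Slc4a8, Slc29a3, Col3a1, Epb41l3 and Lars2 completed the first 10, with folds from 20 to 17.7. Heights among these 10 genes ran from 19 (Slc29a3) to 91 (Lars2). The nucleoside transporter gene Slc29a3 (fold 19.0 at height 19) and Col1a1 (20 at height 20) were the 2 clusters of the list whose implied reference level was 1.00, the lowest found. At a level of 1.00 the fold equals the height, so no cluster of the list had a fold above its height.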
